A study of Mus musculus with 80 samples.

Results

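The 3 ribosomal RNA rows described here are Rn45s, Lars2 and Mir6236, a name that rests on Rn45s alone. They were chosen by their symbols, and the symbols were selected on their high share of counts in fixed liver. The expected-count table of the first chemical holds 2 of the 3 among 18877 rows and that of the second holds all 3 among 17672 rows. Rn45s is the precursor of the large ribosomal RNAs. Lars2 is annotated as a protein-coding gene and Mir6236 as a microRNA gene, and whether their counts come from ribosomal RNA was not tested.

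The libraries were made from livers of male B6C3F1 mice, 4 weeks old by the labels, given either chemical. The plasticizer DEHP, di(2-ethylhexyl) phthalate, an activator of PPAR alpha, was mixed into feed at 0, 1500, 3000 or 6000 ppm over 7 days, with 4 mice at each dose and livers collected in 2013. Dichloroacetic acid (DCA), which inhibits pyruvate dehydrogenase kinase, was dissolved in drinking water at 0, 1, 2 or 3.5 g/L, with 6 mice at each dose and livers collected in 1994. Each of the 40 mice gave 1 frozen library and 1 library of formalin-fixed, paraffin-embedded (FFPE) tissue, 80 in all. The frozen pieces were of mixed lobes and the FFPE sections of stated lobes, so preparation and lobe cannot be told apart. Chemical, year of collection and length of storage cannot be told apart either.

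In a cell, RNA polymerase I copies the repeated ribosomal DNA into 1 long precursor, which is cut and trimmed into ribosomal RNAs of the small and the large subunit. These make up most of the RNA in liver, so total RNA kits remove them with probes before sequencing, and the libraries here were made with such a kit (Ribo-Zero Gold). Formalin fixation and storage break and crosslink RNA. Reads of the precursor and its products that remain are counted on Rn45s. Lars2 encodes the mitochondrial leucyl-tRNA synthetase, a nuclear gene whose enzyme charges the leucine tRNAs of the mitochondrion. Mir6236 is a short annotated microRNA locus with no role stated here.

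Lars2 lies on the plus strand of mouse chromosome 9 in GRCm38, chr9:123366927-123462666, and its reference transcript has 3894 bases. The longest exact run of bases that the Lars2 transcript shared with any of 356 annotated transcripts of class rRNA was 14 bases. Those transcripts are at most 1849 bases long, and the Rn45s sequence itself was not used here.

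The total of expected counts per library had a range of 16582972 to 29550624 (median 22009522) for DEHP frozen libraries and 11673020 to 18866126 (median 16405454) for the FFPE libraries of those animals. The range was 3067666 to 16890024 (median 14686423) for DCA frozen libraries and 109292 to 8434617 (median 504136) for DCA FFPE libraries. All 12 hepatocyte markers were present in each of the 4 sets. Their summed median was 71554 CPM (counts scaled to a common library total) in DEHP frozen and 44017 in DEHP FFPE, 104740 in DCA frozen and 15358 in DCA FFPE liver. Over the counts outside the 3 rows, the last value was 41848. Replicates are separate animals by the labels. Within a dose, 14 of 16 DEHP animals and 14 of 24 DCA animals had a frozen library most like their own FFPE library, so ratios within an animal are given beside ranges that need no pairing. In bulk tissue, fewer cells of a type and less RNA per cell cannot be told apart.

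Rn45s took a larger share of the counts in FFPE than in frozen liver in every animal. As the rows were picked for this level, the shares by preparation are a description with no test. In DEHP frozen liver Rn45s held 0.135, 0.202, 0.303 and 0.0939% of counts in the controls (animals 32A, 45C, 63A and 75A). It held 0.488, 0.135, 0.158 and 0.103% at 1500 ppm (3A, 40A, 60A and 72B). It held 0.144, 0.105, 0.104 and 0.123% at 3000 ppm (35A, 67C, 71A and 9A) and 0.190, 0.132, 0.154 and 0.185% at 6000 ppm (29B, 44A, 64C and 8C). Animal 3A stood above the other 15 libraries, and the dose groups overlapped.

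In DEHP FFPE liver, in the same order of animals, Rn45s held 2.18, 4.16, 2.77 and 2.09% in the controls and 3.18, 2.75, 4.07 and 2.50% at 1500 ppm. It held 1.32, 3.38, 3.37 and 1.70% at 3000 ppm and 5.03, 4.23, 3.03 and 1.63% at 6000 ppm. The lowest FFPE library (35A, 1.32%) lay above the highest frozen library (3A, 0.488%), so the preparations did not overlap, while the dose groups did. The ratio of FFPE to frozen share within an animal had a median of 20.5 (6.52 to 32.4, n = 16).

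In the DCA livers the median Rn45s shares were 0.449% (frozen) and 56.5% (FFPE), against 0.140% and 2.90% in DEHP, a difference between chemicals that was not tested. Without libraries under 500000 counts in total the DCA FFPE median was 25.2%. That cut also changed the mix of doses. It kept all 6 controls, animals 49, 50, 51 and 53 at 1 g/L, 75 and 78 at 2 g/L and 97 at 3.5 g/L. The lowest, median and highest frozen shares were 0.329, 0.621 and 1.57% in controls, 0.195, 0.252 and 1.25% at 1 g/L, 0.383, 0.526 and 0.941% at 2 g/L and 0.243, 0.370 and 0.487% at 3.5 g/L. In FFPE liver they were 4.89, 7.99 and 74.4% in controls, 6.06, 40.6 and 78.8% at 1 g/L, 25.2, 71.4 and 84.2% at 2 g/L and 26.8, 69.7 and 84.1% at 3.5 g/L. All 24 FFPE libraries lay above every frozen library. The within-animal ratio had a median of 110.02 (8.40 to 316.6, n = 24), and it spanned a wider range than in DEHP. On CPM scaled with TMM factors its median was 224. Rn45s was the largest row of all in 18 of 24 DCA FFPE libraries and in none of the other 56, and by median share it ranked 77th in frozen and 3rd in FFPE liver of DEHP animals, and 24th and 1st in those of DCA animals. In DCA FFPE liver it was followed by Lars2, the clone row GU332589 (2.87%), Malat1, a nuclear long noncoding RNA (1.58%), and the clone row AK155692 (1.34%). With counts of this size the 95% Wilson interval of a share is narrow: for animal 98 at 3.5 g/L, FFPE, it ran from 83.7 to 83.99%. Such intervals cover counting error only.

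**Figure D1:**
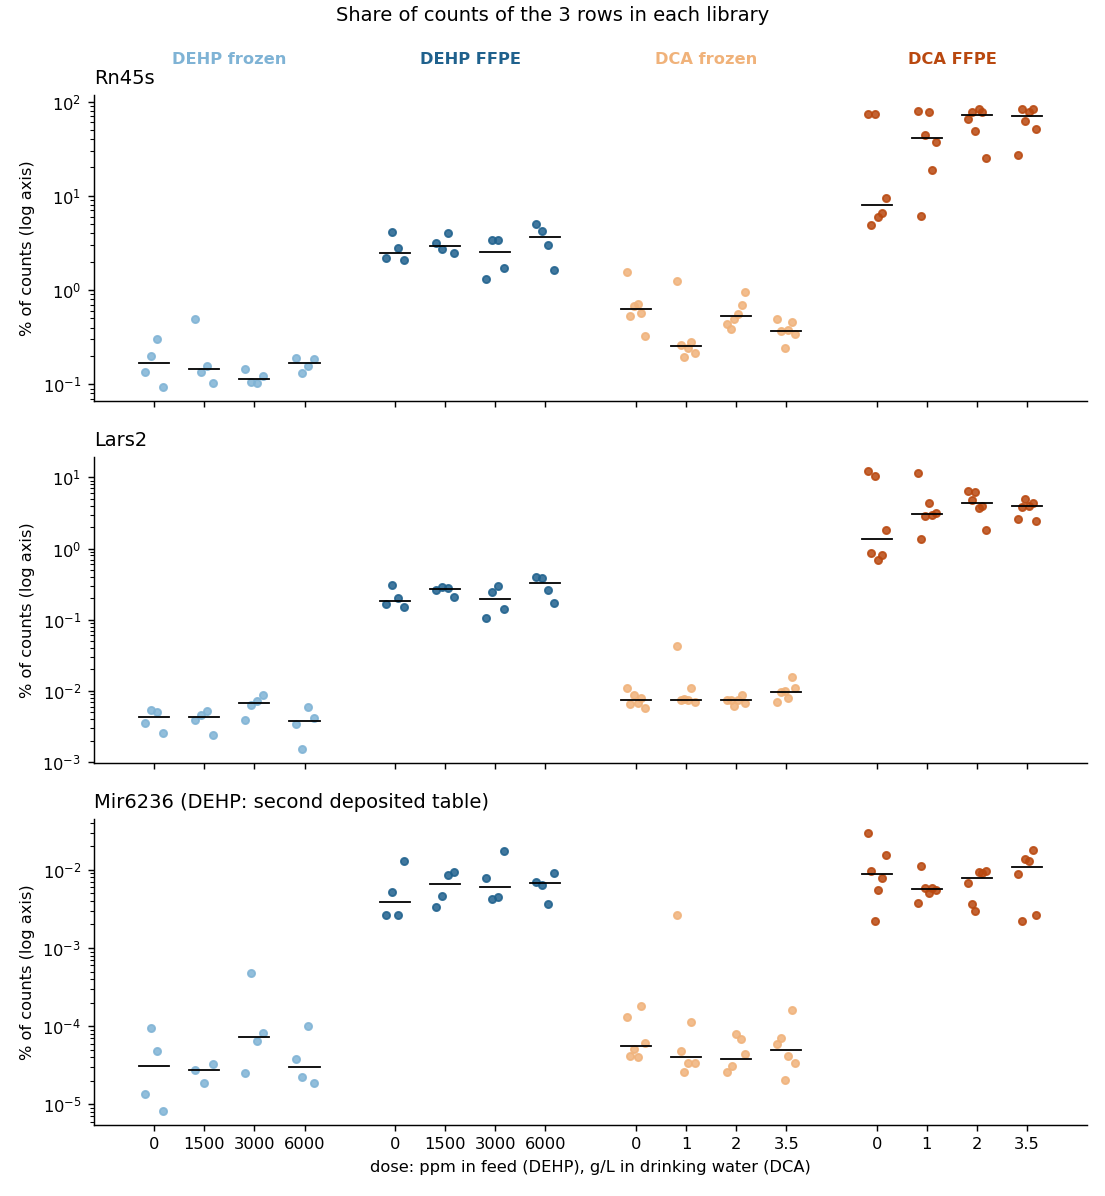
Share of counts of Rn45s, Lars2 and Mir6236 (percent, log axis) in each library by dose, with chemicals and preparations apart; points are libraries and short lines group medians, and Mir6236 in DEHP is from the second deposited table. FFPE libraries sit above every frozen library of their chemical for Rn45s and Lars2, and 1 library with a Mir6236 count of 0 is not drawn.

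Lars2 differed between preparations by a larger factor than Rn45s. Its share in DEHP FFPE liver was 0.164, 0.307, 0.203 and 0.152% in controls, 0.265, 0.283, 0.276 and 0.209% at 1500 ppm, 0.107, 0.242, 0.293 and 0.142% at 3000 ppm and 0.397, 0.389, 0.263 and 0.172% at 6000 ppm, with animals ordered as above. In DEHP frozen liver the 16 shares ran from 0.00153 to 0.00860% with a median of 0.00436%. No frozen library came near the FFPE libraries, and the within-animal ratio had a median of 49.4 (16.5 to 254.8).

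The Lars2 share in DCA frozen liver was 0.00575, 0.00733 and 0.0108% in controls (lowest, median and highest), 0.00703, 0.00751 and 0.0432% at 1 g/L, 0.00613, 0.00735 and 0.00886% at 2 g/L and 0.00706, 0.00977 and 0.0154% at 3.5 g/L. In FFPE liver it was 0.680, 1.36 and 12.4% in controls, 1.35, 3.07 and 11.7% at 1 g/L, 1.81, 4.42 and 6.36% at 2 g/L and 2.45, 3.93 and 4.98% at 3.5 g/L. Every FFPE library again lay above every frozen library, and the within-animal ratio had a median of 391 (100.3 to 1179). This separation was lost in the second deposited table of raw counts. There 19 of 24 FFPE libraries lay above every frozen library, as the lowest FFPE share was 1.497% and the highest frozen share, that of animal 77, was 2.89%. The within-animal ratio there had a median of 284 and was 1.27 in animal 77. Lars2 ranked 2nd of all rows by median share in DCA FFPE liver and 1730th in DCA frozen liver.

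Mir6236 was a row of few counts. Its share in DCA frozen liver ran from 0 to 0.00267% with a median of 4.61e-05%. The library at 0 (animal 74, 2 g/L) had a total of 3067666 counts, which allows a share of up to 9.78e-05%. In DCA FFPE liver the share ran from 0.00220 to 0.0299% with a median of 0.00738%, and 21 of 24 libraries lay above every frozen library. The 1 frozen library that overlapped them was that of animal 49 at 1 g/L (0.00267%, 95% Wilson interval 0.00242 to 0.00295%). The within-animal ratio had a median of 149 (1.42 to 675.8, n = 23). On the authors' FPKM values the same ratio had a median of 37.1 (1.08 to 148, n = 23). In the second table its median was 139, with 23 of 24 animals above 1 and animal 49 at 0.467. The DEHP expected-count table has no row for it, so the second deposited set of raw counts was used there: the share ran from 8.26e-06 to 0.000480% in frozen and from 0.00266 to 0.0173% in FFPE liver, without overlap.

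Ranked by the log2 ratio of FFPE to frozen CPM, Lars2 came 1st and Rn45s 3rd of 12988 rows in DEHP, and Lars2 2nd, Rn45s 4th and Mir6236 5th of 7099 rows in DCA. The 3 rows were picked for their level in fixed liver, so these ranks are a description and no result. Ranked rows needed a mean count of at least 10 in both preparations. In DCA frozen liver Mir6236 had a median count of 7, with 393 counts in animal 49. The 18 other mitochondrial aminoacyl-tRNA synthetases, the enzyme family of Lars2, were not among the highest ranks. In DEHP 4 of the 18 were higher in FFPE liver, with a median log2 ratio of -0.21 against -0.07 for all rows, and the highest was Vars2 at 0.27. In DCA 0 of the 10 with enough counts were higher, with a median of -3.47 against -2.28 for all rows, and the highest was Iars2 at -2.03. Lars2 itself had 5.59 in DEHP and 8.59 in DCA.

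Other structured RNAs (small nucleolar RNAs, small Cajal body RNAs, RNase P and MRP RNAs and the like) were higher in DEHP FFPE than in frozen liver in 31 of the 33 members that had enough counts in both, of 71 in the table. Their median log2 ratio was 0.62 against -0.07 for all rows, and 41.9% of all rows were higher. In DCA 1 of 13 was higher, Rnu12 at 0.88, and 1.41% of all rows were higher. The median of the 13 was -1.36 against -2.28 for all rows. For genes that make and process ribosomal RNA the values were lower. RNA polymerase I genes had medians of -0.30 (DEHP) and -2.98 (DCA), and processing factors -0.33 and -3.64. None of the symbols searched for mitochondrial ribosomal RNA is in either table. What the rows with clone names hold was not tested.

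In the first table Lars2 and Rn45s followed each other closely in DEHP FFPE libraries and hardly at all in frozen libraries. For every 100 Rn45s counts there were 6.79 to 10.6 Lars2 counts (median 8.21) in the 16 DEHP FFPE libraries, although the Rn45s share itself spanned a factor of 3.82. In DEHP frozen liver the ratio ran from 0.806 to 7.01 (median 2.68) over a factor of 5.20 in the Rn45s share. The ratio was less narrow in the second table, where it ran from 2.81 to 18.9 Lars2 counts (median 4.80) per 100 Rn45s counts in the DEHP FFPE libraries. The 18.9 was animal 75A alone, and the next highest was 6.18 (animal 44A). In that table the ratio also differed by the prefix of the column names. It ran from 2.81 to 4.405 in the 6 libraries of prefix H36450, and was 4.38 in the 1 of H36449. The lowest ratios were 4.79 in H36451 and 4.82 in V12161. The Lars2 share there was 0.682 to 0.803 times that of the first table in H36450, and 1.05 times in H36449. The lowest were 1.12 times in H36451 and 1.11 times in V12161. The part of the prefix was not tested. The correlation of log2 shares was r = 0.944 (Spearman 0.903) in FFPE and 0.067 (0.071) in frozen liver, over 16 libraries each. In the second table it was 0.830 in FFPE (16 libraries) and 0.318 in frozen liver (15 libraries). These r values are descriptions: the rows share library, depth and total.

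In the first table the ratio in DCA FFPE liver was 4.42 to 22.2 Lars2 counts per 100 Rn45s counts (median 9.09). There it lay above every DCA frozen library (0.689 to 4.09, median 1.83). This separation was lost in the second table, where the ratio ran from 3.28 to 14.99 in FFPE and from 0.707 to 25.04 in frozen liver. Frozen animals 77 (25.04), 73 (19.62) and 101 (17.65) lay above every FFPE library there. In the first table the FFPE ratio differed between the 2 prefixes of the column names, called runs here, though no label says what they stand for. The median was 14.8 in run V18431 (6.54 to 22.2, 9 libraries) and 6.19 in run W48315 (4.42 to 16.0, 15 libraries). Within the runs r was 0.957 (Spearman 0.90) and 0.619 (Spearman 0.421). In the second table it was 0.913 in run V18431 and -0.148 (Spearman -0.261) in run W48315. Frozen DCA libraries had r = 0.359, with a Spearman value of 0.038 over 24 libraries, and in the second table, where animals 77 and 73 stand apart, r = 0.766 (Spearman 0.385). In the first table the frozen ratio at 1 g/L (2.83 to 3.97) did not overlap that of the controls (0.689 to 1.75), while those at 2 g/L (0.706 to 1.92) and 3.5 g/L (1.45 to 4.09) did. Frozen animals 53 and 54 at 1 g/L were in run V18431, and all frozen controls were in run W48315.

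Whether Mir6236 followed Rn45s in fixed tissue depended on the scale. On shares of the total, of which Rn45s itself held up to 84.2% in DCA FFPE liver, it did not. Its log2 share had r = -0.188 to Rn45s in DCA FFPE liver (24 libraries) and 0.0035 in the second DEHP FFPE table (16 libraries). In DCA frozen liver r was 0.559 to Rn45s and 0.823 to Lars2 over 23 libraries, with Spearman values of 0.519 and 0.404. Animal 49 was the highest frozen library of both Lars2 and Mir6236.

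**Figure D2:**
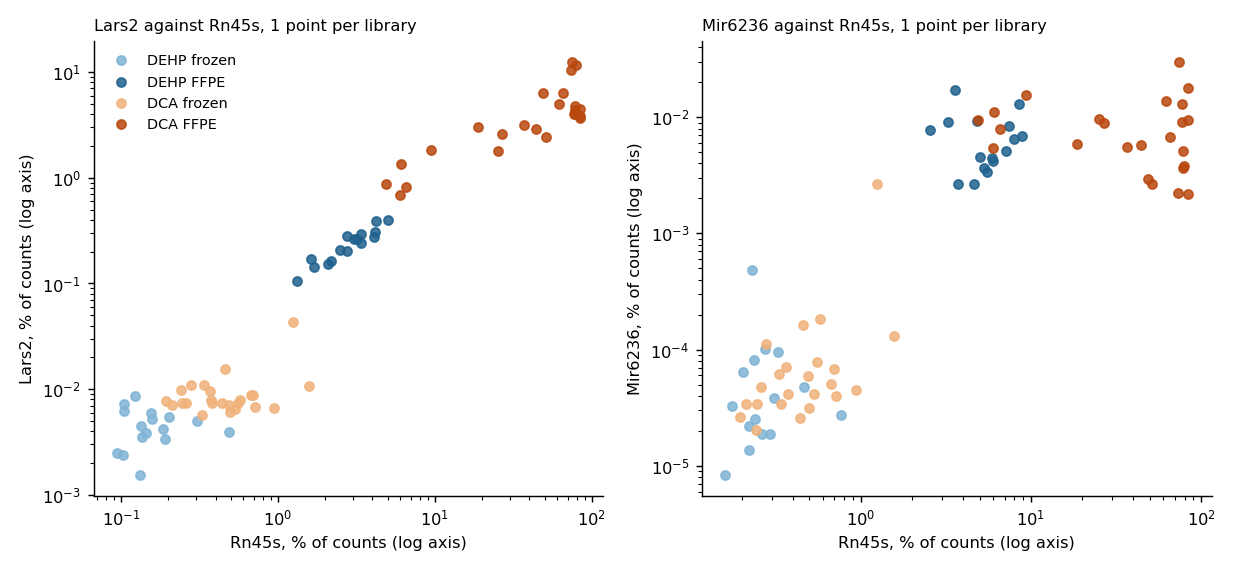
Share of Lars2 (left) and of Mir6236 (right) against that of Rn45s in each library (percent of counts, both axes log), coloured by set; the DEHP points on the right are from the second deposited table. The DEHP FFPE points lie close to 1 line for Lars2, with 6.79 to 10.6 Lars2 counts per 100 Rn45s counts, and the Mir6236 points of FFPE libraries show no such line.

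On CPM of the counts outside the 3 rows, the rows whose levels were most like Rn45s over the 16 DEHP FFPE libraries were AK155692 (r = 0.975), a clone name, Akt1s1 (0.961), a subunit of mTORC1, Poll (0.953), DNA polymerase lambda, and Rbck1 (0.948), part of the linear ubiquitin ligase. Lars2 came 5th of 10199 rows at 0.947, where the median row had 0.091. Over the 24 DCA FFPE libraries Lars2 came 1st of 2144 rows (0.961), followed by the clone names AK033180 (0.849), GU332589 (0.769), AK155692 (0.694) and BC114417 (0.690), and Mir6236 came 6th (0.676), where on shares it had -0.188. The median row there had -0.408. AK155692 was in the first 5 in both chemicals. In frozen liver Lars2 ranked 5678th of 10857 rows (DEHP) and 1967th of 9876 rows (DCA). The rows share the same denominator, and no p is given for a likeness.

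In the first table the DCA FFPE shares fell into separate ranges within run V18431, which holds the 6 controls and animals 49, 50 and 51. Rn45s held 74.4, 73.4 and 78.8% in animals 3, 5 and 49 and 44.3% in animal 51. It held 4.89, 5.99, 6.58, 9.40 and 6.06% in animals 4, 6, 7, 8 and 50. Both ranges hold controls and treated animals of 1 run. In run W48315, which holds animals 52 to 54 and all animals at 2 and 3.5 g/L, shares spread from 18.7 to 84.2%.

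In run W48315 the Rn45s count spanned a narrower range than the rest of a library. Rn45s counts lay between 85118 and 246455 in its 15 FFPE libraries, while the counts outside the 3 rows lay between 15323 and 460636. The log2 share fell with the log2 total there (r = -0.844, permutation p = 1e-04, adjusted p = 8e-04 over 8 relations, Spearman -0.825). Without the 2 libraries farthest from the median total r was -0.753 (permutation p = 0.00298). The total contains Rn45s itself, and Rn45s counts varied less than the rest. A negative r thus follows in part from how the share is formed. In run V18431 r was 0.167 (exact permutation p = 0.67, n = 9). In the other sets r was -0.011 (DEHP frozen), -0.349 (DEHP FFPE) and 0.031 (DCA frozen), with permutation p values of 0.969, 0.185 and 0.886. Both runs hold only part of the doses, so no pooled value is read for DCA FFPE liver.

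**Figure D3:**
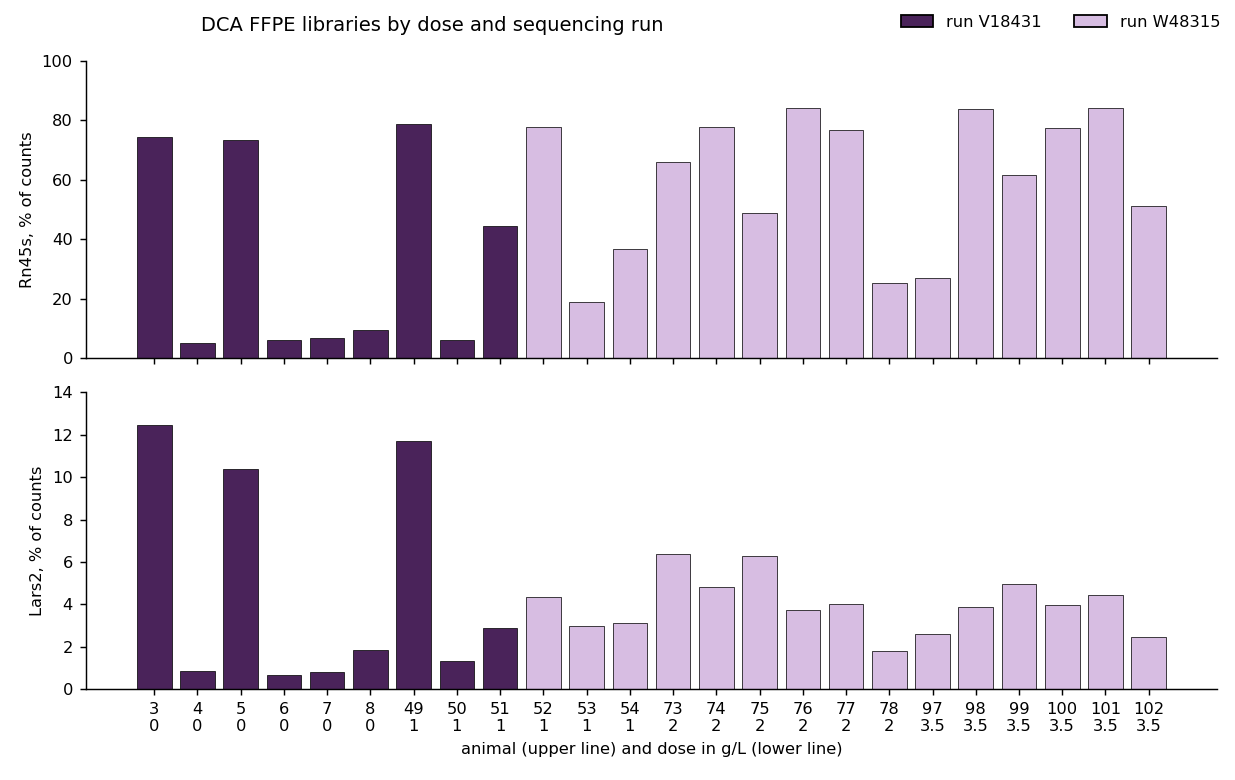
Share of Rn45s (top) and Lars2 (bottom) in each DCA FFPE library (bars, percent of expected counts), ordered by dose and coloured by run (prefix of the column name). In run V18431 Rn45s shares of 4.89 to 9.40% and of 44.3 to 78.8% occur side by side, and the 3 highest Lars2 bars are animals 3, 5 and 49 of that run.

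Run and dose overlap only at 1 g/L and in the controls of 1 run. The 3 libraries at 1 g/L in run W48315 held 18.7 to 77.7% Rn45s and the 3 in run V18431 held 6.06 to 78.8% (log2 difference 0.45, exact permutation p = 0.90, where 3 against 3 cannot go below 0.10). Within run V18431, the 1 g/L libraries differed from the 6 controls by 0.92 on the log2 scale (exact permutation p = 0.62). For Lars2 the differences were -0.05 and 0.70 (exact permutation p = 1 and 0.57), and for Mir6236 -0.18 and -0.48 (exact permutation p = 0.80 and 0.60). All 6 adjusted p values were 1.

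A dose effect was tested on all rows with edgeR's quasi-likelihood test, and a row was called at a Benjamini-Hochberg adjusted p under 0.05, 2-sided. This test is on doses, which the choice of rows did not use. In DEHP frozen liver neither Rn45s nor Lars2 was called at any dose, where 6.48, 14.7 and 11.8% of rows were called at 1500, 3000 and 6000 ppm. The largest log2 change was that of Lars2 at 3000 ppm, 0.66 (adjusted p = 0.206). In DEHP FFPE liver neither was called either, with 5.86, 9.39 and 12.4% of rows called. At 6000 ppm Lars2 had a log2 fold change of 0.69 ± 0.31 (SE, edgeR adjusted p = 0.165), and Rn45s one of 0.44 (adjusted p = 0.462). Mir6236, tested in the second tables, was not called at any dose, where 3.97, 16.6 and 12.4% (frozen) and 5.77, 9.9 and 11.8% (FFPE) of rows were. Its value at 3000 ppm in frozen liver was 1.96 ± 0.80 (adjusted p = 0.107), and animal 67C held 0.000480% there.

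The 6000 ppm effect was then compared between FFPE and frozen liver in 1 edgeR fit of the 32 DEHP libraries. The difference was 0.66 ± 0.56 for Rn45s and 0.89 ± 0.49 for Lars2 on the log2 scale (both adjusted p above 0.99). It was 0.30 ± 1.30 for Mir6236 in the second tables. Of 14065 rows 0 were called (0%), with 110 at an unadjusted p under 0.05, and 0% were called in the second tables too.

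Of DCA frozen tests, 1 of the 9 row and dose tests was called. Rn45s fell at 3.5 g/L by 1.06 on the log2 scale (SE 0.39, edgeR adjusted p = 0.0296). The highest control was animal 3 (1.57%). At that dose 43% of all rows were called, at 2 g/L 29.2% and at 1 g/L 11.1%. The 6 shares at 3.5 g/L (0.243 to 0.487%) overlapped the controls through animal 8 (0.329%). Without control 3 the change was -0.70 (adjusted p = 0.139), without animal 99 -0.97 (0.0665) and without animal 102 -1.05 (0.0512). With library totals the adjusted p was 0.0517, with DESeq2 0.0881 and with the second set of counts 0.226.

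At 1 g/L the Rn45s change in frozen liver was -0.94 ± 0.39 (edgeR adjusted p = 0.112), and without animal 49 it was -1.69 (adjusted p = 0.000529). The column names also hold an L number, and no label says what it stands for. Animal 49 had L5, as had the 6 controls. The other 5 animals at 1 g/L had L numbers shared with no frozen library of another dose. They held 0.195 to 0.279%, below every control. Of these, animals 53 and 54 were in run V18431, while all other DCA frozen libraries were in run W48315. All 6 animals at 3.5 g/L and 3 at 2 g/L had L4, and these 9 libraries held 0.243 to 0.941%. The part of run and L number in these changes was not tested, and at 3.5 g/L the L number and dose cannot be told apart. At 2 g/L the change was -0.46 (adjusted p = 0.393).

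Lars2 in DCA frozen liver had log2 changes of 0.74, -0.23 and 0.27 at 1, 2 and 3.5 g/L (edgeR adjusted p = 0.145 at 1 g/L), and without animal 49 the first was -0.01. Mir6236 had 2.4 at 1 g/L (adjusted p = 0.0717), -0.80 without animal 49, and -0.80 and -0.50 at the other doses. The shares of animal 49 were 0.0432% for Lars2 and 0.00267% for Mir6236, against at most 0.0111% and 0.000111% in the other 5 animals at its dose.

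No row was called in DCA FFPE liver at any dose, where 0.126, 0.335 and 0.293% of rows were called. The direction for Rn45s depended on the scaling. At 3.5 g/L the log2 fold change was -0.37 with TMM factors and 1.14 with library totals, when the median of all rows tested was -0.68 and -1.12. Lars2 had -1.73 at 2 g/L (adjusted p = 0.176) and -1.86 ± 0.52 at 3.5 g/L (edgeR adjusted p = 0.0876) with TMM factors, but -0.27 at 3.5 g/L with library totals and 0.51 with run as a term. At 1 g/L it had -0.67, and without animal 49 it was called (-2.68, edgeR adjusted p = 0.000229). It was called at 2 and 3.5 g/L, at -2.12 to -1.99 and -2.22 to -2.12, when any 1 of the controls 4, 6, 7 and 8 was left out, and these are controls of low Rn45s share. Mir6236 had -2.06, -1.996 and -1.30 at the 3 doses (edgeR adjusted p = 1.00, 0.696 and 0.743), and -0.92, -0.78 and -0.30 with library totals. All 6 controls were in 1 run and all libraries at 2 and 3.5 g/L in the other, so run and dose cannot be told apart at those doses.

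**Figure D4:**
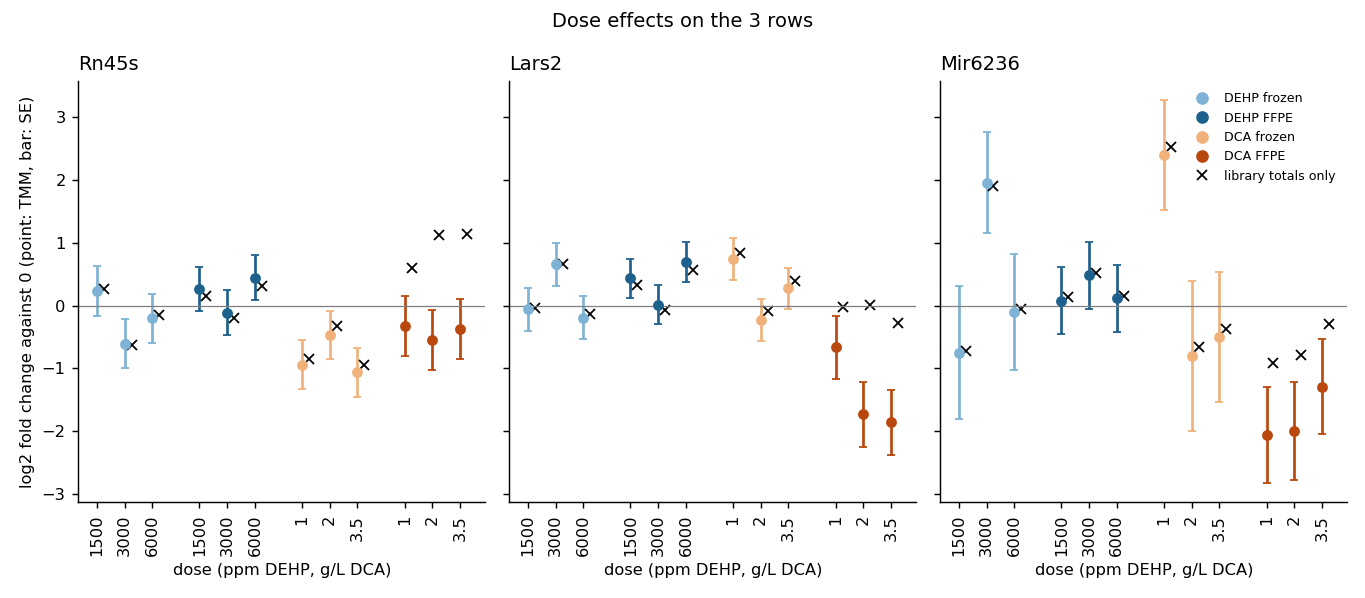
Log2 fold change against dose 0 of each row in each set, from the edgeR fits: points with bars of 1 SE use TMM factors, and crosses use library totals only. The call at an adjusted p under 0.05 is Rn45s at 3.5 g/L in DCA frozen liver (-1.06); for Rn45s in DCA FFPE liver points and crosses lie on opposite sides of 0. Mir6236 in DEHP comes from the second tables.

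Genes around ribosomal RNA were taken from lists, given here by their counts beside all rows. At 6000 ppm DEHP, where 11.8% of all rows were called in frozen and 12.4% in FFPE liver, 0 of 21 RNA polymerase I genes were called in either. Of 43 processing factors Nhp2 rose and Emg1 and Nop16 fell in frozen liver, and Nhp2 and Las1l rose in FFPE liver. Nhp2 is a core protein of box H/ACA ribonucleoproteins. Gars, the glycyl-tRNA synthetase, rose in both preparations and Iars2 in FFPE liver, of 18 synthetases. None of the other structured RNAs tested, 32 in frozen and 41 in FFPE liver of 71, was called.

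At 3.5 g/L DCA in frozen liver 10 of 21 RNA polymerase I genes rose and 1 fell (median log2 change 0.27 against -0.02 for all rows), beside 2868 rises (21.9%) and 2763 falls (21.1%) among all 13089 rows. Baz2a, a subunit of the nucleolar remodelling complex, was among those called (0.20, edgeR adjusted p = 0.0112), and Ubtf, the upstream binding factor of RNA polymerase I, had 0.08 (adjusted p = 0.386). Of 43 processing factors 24 rose and 2 fell (median 0.25). Nucleolin (Ncl) had 0.03 and nucleophosmin (Npm1) -0.05, neither called. Of 18 synthetases 5 rose, Gars by 0.47 (adjusted p = 1.64e-05), and 2 fell. With library totals in place of TMM factors, which moved the median of all rows to 0.10, 4235 rows rose (32.4%) and 1771 fell (13.5%) in all. The lists then had 13 rises and 0 falls (RNA polymerase I), 29 and 0 (processing factors) and 10 and 0 (synthetases).

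None of 27 other structured RNAs rose in DCA frozen liver at 3.5 g/L and 7 fell, where 21.1% of all rows fell. Their median was -0.22, and with library totals 1 rose and 4 fell. Rpph1, the RNA of RNase P, fell by 0.95 (adjusted p = 0.0129), and Rmrp, the RNA of RNase MRP, had -0.28 (adjusted p = 0.142). The difference between lists was not tested. In DCA FFPE liver at 3.5 g/L, where 0.293% of 4772 rows were called, 0 of 4, 0 of 8, 0 of 3 and 0 of 11 tested members of the 4 lists were called, and at such a share these counts say nothing about the lists.

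The share of an animal in frozen liver was set against its share in FFPE liver. None of 6 correlations over animals passed on shares. Lars2 in DCA had the highest (r = 0.481, permutation p = 0.0151, adjusted p = 0.0907, Spearman 0.470 with permutation p = 0.0216, n = 24). Without the 2 animals farthest from the median frozen share r was 0.390 (permutation p = 0.0744). On CPM of the counts outside the 3 rows, this relation passed (r = 0.535, permutation p = 0.0022, adjusted p = 0.0109 over 5 relations, Spearman 0.594), and without the 2 farthest animals it had r = 0.415 (permutation p = 0.0573). Within FFPE run V18431 r on shares was 0.645 (n = 9, exact permutation p = 0.0071, not adjusted), with a Spearman value of 0.667 (exact permutation p = 0.0589). Without the 2 farthest animals r there was 0.538 (exact permutation p = 0.222). Within FFPE run W48315 r was -0.038 (n = 15, permutation p = 0.893). Rn45s had r = 0.189 in DEHP and 0.070 in DCA, with permutation p values of 0.491 and 0.747.

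The second deposited set of raw counts, which no source used here ties to a named tool, gave other values for these rows in some libraries. Over rows of high counts, the log counts of a library in the 2 tables had r of 0.980 to 0.983 (frozen) and 0.975 to 0.981 (FFPE) in DEHP, and of 0.993 to 0.995 (frozen) and 0.945 to 0.987 (FFPE) in DCA. In frozen DCA animal 77 (2 g/L) Rn45s held 0.695% in the first table and 11.5% in the second, Lars2 0.00886% and 2.89%, and Mir6236 9 and 136 counts. After removing the set's usual offset, these were the 1st (Lars2), 2nd (Rn45s) and 3rd (Mir6236) largest differences of 9500 rows in that library.

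The same rows led the differences in other libraries. In frozen DCA animal 73 (2 g/L) Lars2 was 1st and Rn45s 2nd, with shares of 0.00739 and 0.487% for Lars2. Lars2 was 1st in animals 101, 53 and 4 too. In DEHP FFPE animal 75A Lars2 was 1st and Rn45s 2nd of 8998 rows, at 0.152 and 1.61% for Lars2 and 2.09 and 8.54% for Rn45s. The 5 DCA FFPE libraries of run V18431 with Rn45s shares under 10% were those where Rn45s differed most between tables. In animal 4, for example, it held 4.89 and 21.05%. The comparison of tables was chosen after these values were seen, and why the tables differ was not tested.

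**Figure D5:**
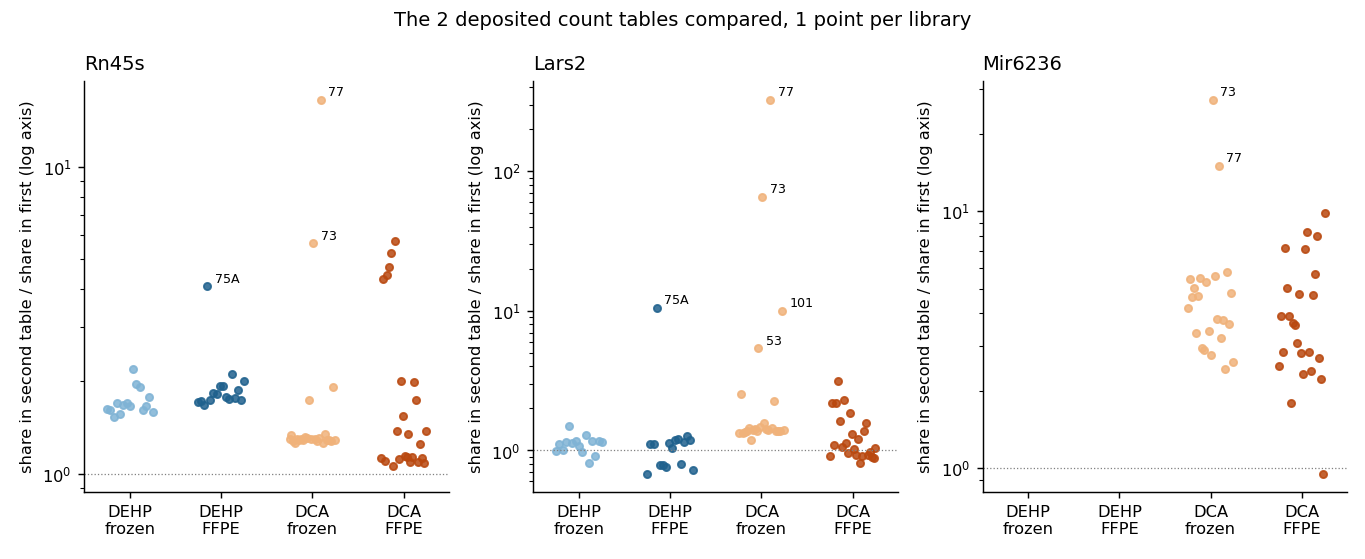
Share of each row in the second deposited raw counts divided by that in the expected counts, 1 point per library (log axis, dotted line at 1), by set; Mir6236 has no row in the DEHP expected counts. Numbers mark the libraries far above their set, among them frozen DCA animals 77 and 73 and DEHP FFPE animal 75A, and 5 DCA FFPE libraries stand apart for Rn45s.

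The choice of table decided 3 calls. In DCA frozen liver at 2 g/L, Lars2 changed by -0.23 in the expected counts and by 5.60 in the second table (edgeR adjusted p = 0.00218), where animals 77 and 73 are. Rn45s had -0.46 and 1.58 there, neither called. At 3.5 g/L in DCA frozen liver the fall of Rn45s was called in the first table only (edgeR adjusted p = 0.0296, against 0.226). At 3.5 g/L in DCA FFPE liver Lars2 was called in the second table only (-1.76, edgeR adjusted p = 0.042, against 0.0876). Calls from the second table made up 12.1, 29.2 and 42.7% of rows in DCA frozen liver at 1, 2 and 3.5 g/L, and 0.153, 0.214 and 0.275% in DCA FFPE liver.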

How the data were processed

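Liver RNA of 40 mice was sequenced from frozen and FFPE tissue after ribosomal RNA had been depleted (TruSeq Stranded Total RNA, Ribo-Zero Gold), with 100 ng as input and FFPE RNA taken from 4 sections of 10 µm, per the labels' protocols. Per the submitters' processing notes, the tools were CASAVA, STAR 2.4 and RSEM on mm10. The authors deposited RSEM expected counts per gene, which are not normalized and were rounded here to whole numbers for the fits. The authors also deposited FPKM values, used as an alternative for the ratio between preparations. A second set of deposited raw counts per gene, made by a tool not given in the sources used here, was an alternative and the main source for Mir6236 in DEHP. It has 15 DEHP frozen libraries, and in DCA FFPE liver its 19008 complete rows are the denominator of shares.

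A share is a row's count over the total expected count of its library. Dose effects were fitted over all rows in each set apart with edgeR 4.0.16 (R 4.3.3, limma 3.58.1: filterByExpr, TMM, quasi-likelihood test, Benjamini-Hochberg). The SE is the log2 fold change divided by the square root of F. Likeness to Rn45s is Pearson r over rows with a mean count of at least 50, on log2 of CPM of the counts outside the 3 rows plus 1. Permutation tests used scipy 1.17.1, exact up to 9 libraries and with 100000 resamples above. The fits were tested on simulated data.

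The rows, the gene lists and the rules for naming genes were chosen with earlier results of these data known. Named are the 3 rows, the 2 list members of highest mean count, called members where there are 5 or fewer, the 5 rows most like Rn45s and the rows of largest share. The animal pairs frozen and FFPE libraries, by the labels. The correlation of their residuals within a dose had a median of 0.57 over 10139 genes in DEHP and 0.0656 over 2143 genes in DCA. Alternatives were DESeq2 1.42.0, its size factors, library totals, factors from counts outside the 3 rows, no or a stricter filter, fits of 2 groups, run as a term, the second table and leaving out each library. 1 sequence is not reported here.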

Additional observations from a re-analysis of the deposited data

Results flagged for a closer look

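In 9 of 47 checks, 1 library lay far from the others of its dose. Each check took 1 row in 1 dose group of 4 or 6 libraries. The measure was the gap to the nearest other library over the range of the group. The cutoff is passed by chance in about 1 in 20 checks of normal values. Normality of the shares was not tested and checks of different rows share libraries, so 9 of 47 cannot be set against that rate.

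Of the 9 flagged values, 4 are from 1 animal. Animal 49 (1 g/L DCA) held 1.25% Rn45s in frozen liver, where the next library of its dose held 0.279%. Its frozen Lars2 share was 0.0432% (next 0.0111%) and its frozen Mir6236 share 0.00267% (next 0.000111%). In FFPE liver it held 11.7% Lars2 (next 4.35%). Its frozen library had the L number of the controls in the column names, and the part of that number was not tested.

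Among DCA controls, frozen animal 3 held 1.57% Rn45s (next 0.713%), and the call at 3.5 g/L was lost without it. Frozen animal 101 (3.5 g/L) held 0.000162% Mir6236 (next 7.12e-05%), and FFPE animal 50 (1 g/L) 0.0111% (next 0.00591%). In DEHP frozen liver animal 3A (1500 ppm) held 0.488% Rn45s (next 0.158%). Frozen animal 67C (3000 ppm) held 0.000480% Mir6236 in the second table (next 8.14e-05%).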

How the results depend on the processing

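Most alternatives kept direction and side of the threshold, and the cause of those that did not was not tested. Values are log2 fold changes unless stated. In DCA FFPE liver Rn45s at 1, 2 and 3.5 g/L had 0.60, 1.12 and 1.14 with library totals, 0.71, 0.81 and 1.05 with DESeq2 size factors and the same with DESeq2, 0.23, 0.89 and 1.06 with run as a term, and -0.48 at 3.5 g/L without a filter (edgeR adjusted p = 0.0385). Lars2 there had 0.35 at 1 g/L with DESeq2 and with its factors, 0.0083 at 2 g/L with library totals, and 0.080, 0.65 and 0.51 at 1, 2 and 3.5 g/L with run as a term. Lars2 was called at 2 and 3.5 g/L without a filter (-1.84 and -1.95) and with the stricter filter (-1.81 and -1.95), and at 3.5 g/L in a fit of 2 groups (-1.82) and in the second table (-1.76). Mir6236 at 3.5 g/L had 0.073 with DESeq2 size factors and 0.094 with DESeq2. In DCA frozen liver the call of Rn45s at 3.5 g/L was lost with library totals (-0.95), with DESeq2 (-1.07) and in the second table (-0.97). The second table turned Rn45s (1.58), Lars2 (5.60) and Mir6236 (0.30) at 2 g/L. In DEHP it turned Lars2 at 1500 ppm in frozen liver (0.13), Rn45s (-0.11) and Lars2 (-1.46) at 1500 ppm in FFPE liver, Lars2 at 3000 (-1.50) and 6000 ppm (-0.78), and the difference of the 6000 ppm effect on Lars2 between preparations (-0.70). Run as a term turned Rn45s at 1500 ppm in frozen (-0.22) and at 3000 ppm in FFPE liver (0.057), library totals Lars2 at 3000 ppm in FFPE liver (-0.076), and DESeq2 Mir6236 at 6000 ppm in frozen liver (0.021).

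Leaving out 1 library at a time gave ranges that crossed 0 or the threshold. In DCA FFPE liver at 1, 2 and 3.5 g/L they were -1.63 to 0.66, -0.95 to 0.43 and -0.72 to 0.60 for Rn45s, -2.68 to 0.45 for Lars2 at 1 g/L, -2.12 to -0.61 at 2 g/L and -2.22 to -0.75 at 3.5 g/L, and -2.49 to 0.26, -2.40 to 0.32 and -1.82 to 1.01 for Mir6236. In DCA frozen liver they were -1.69 to -0.57 for Rn45s, -0.013 to 0.88 for Lars2 and -0.80 to 2.80 for Mir6236 at 1 g/L, and -1.21 to -0.70 for Rn45s at 3.5 g/L, where 9 of 12 were called. In DEHP frozen liver they were -0.47 to 0.58 (1500 ppm) and -0.39 to 0.15 (6000 ppm) for Rn45s, -0.23 to 0.13 and -0.49 to 0.073 for Lars2, and -1.04 to 0.057 and -0.79 to 0.71 for Mir6236. In DEHP FFPE liver they were -0.28 to 0.16 for Rn45s and -0.22 to 0.29 for Lars2 at 3000 ppm, and -0.17 to 0.90, -0.16 to 1.30 and -0.14 to 0.93 for Mir6236 at 1500, 3000 and 6000 ppm. The difference of the Mir6236 effect between preparations ran from -0.58 to 1.36.

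With the animal as replicate block, the differences of the 6000 ppm effect were 0.49 for Rn45s, 0.93 for Lars2 and 0.54 for Mir6236. The block changed no call, and 254 rows had an unadjusted p under 0.05 against 110 without it.

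Among shares, the second table gave a median Rn45s share of 0.240% in DEHP frozen and 5.40% in DEHP FFPE liver and a median Mir6236 share of 0.0265% in DCA FFPE liver. Without libraries under 500000 counts the median Rn45s share in DCA FFPE liver was 25.2%, with all 6 controls kept and only animal 97 at 3.5 g/L. On TMM-scaled CPM the median ratios in DCA were 223.98 for Rn45s and 777 for Lars2. On CPM of the counts outside the 3 rows the frozen and FFPE levels of Lars2 in DCA had r = 0.535 (permutation adjusted p = 0.0109). Low totals limit Mir6236 in DCA FFPE liver to few counts in some libraries.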
